A study of Homo sapiens with 12 samples.

Results

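The 42 ribosome biogenesis factors described here are genes for proteins that make ribosomes without being part of the finished particle. They were chosen by name, as the rows of the deposited expression table whose symbol stands on a list of 42, out of 23686 gene symbols in the table. Ribosomes are built in the nucleolus: RNA polymerase I transcribes the ribosomal RNA precursor, small nucleolar ribonucleoproteins modify it, and the small subunit processome and the 60S assembly factors fold it, cut it and load it with ribosomal proteins. Many of these genes are textbook targets of the transcription factor MYC, and the nucleolus is known to react to cellular stress. By role, the list holds 3 subunits of the polymerase, 3 core proteins of box C/D particles, 4 core proteins of H/ACA particles, 11 factors of the small subunit processome and 40S maturation, the 3 proteins of the PeBoW complex, 12 factors of 60S assembly and 6 nucleolar chaperones and regulators.

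RNA came from HCT116, a line from a colon cancer, and MDA-MB-231, a line from a breast cancer. Each line was sampled after anti-Hsp60N antibody with 100 µM hydrogen peroxide (H2O2) for 8 h, after IgG with the same H2O2, and after IgG without H2O2. Each of the 6 groups had 2 libraries, and no group had the antibody without H2O2. The lines grew in different media, so line and medium cannot be told apart. Whether the replicates were grown as separate cultures is not stated, and p-values therefore measure the spread between libraries, which may be technical. Values are TPM, transcript levels scaled to gene length and library total; depth is unknown, and fewer cells of a kind and less RNA per cell cannot be told apart. The summed TPM of 8 epithelial markers was 6152 to 6444 in HCT116 and 1778 to 2006 in MDA-MB-231. In MDA-MB-231 under IgG that sum was mostly KRT8, KRT18 and KRT19, at means of 807, 646 and 482 TPM. CDH1, ESRP1 and RAB25 had means of 0.63, 0.085 and 0.04 TPM there, and EPCAM and CLDN7 of 24.7 and 36.3 TPM. The sum of 6 mesenchymal markers was 42.9 to 60.2 in HCT116 and 2674 to 3061 in MDA-MB-231. CDX2, a colon transcription factor, was at 17.2 and 15.1 TPM in HCT116 under IgG and listed at 0 in both MDA-MB-231 libraries under IgG. VIL1, the other colon marker read, was at 0.04 and 0 TPM in HCT116 and 0 and 0.07 TPM in MDA-MB-231 under IgG. HMOX1, which encodes the oxidant-induced heme oxygenase, was at 171 and 176 TPM in HCT116 with H2O2, against 57.7 and 61.1 TPM under IgG (log2 fold change 1.53, limma adjusted p = 5.04e-08). In MDA-MB-231 it was at 70.4 and 74.2 TPM with H2O2, against 29.3 and 30.2 TPM under IgG (1.25, limma adjusted p = 4.5e-06).

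All 42 genes were expressed in all 12 libraries, at 10.2 TPM (HEATR1 in MDA-MB-231) to 3648 TPM (NPM1 in HCT116). The median of their mean levels was 106 TPM, against 17.8 TPM over the 13956 genes kept for testing. All 42 stood above the median gene kept, and 19 stood above the 90th percentile. The histone chaperone NPM1 and the pre-ribosomal RNA binding protein NCL were the most abundant members in every group, and the box C/D methyltransferase FBL was the next in the 3 MDA-MB-231 groups and the 3 HCT116 groups. The processome proteins UTP20, UTP15 and HEATR1 and the polymerase subunit POLR1B were among the lowest. Together the members held 1.08% to 1.25% of all TPM in HCT116 and 0.805% to 0.847% in MDA-MB-231. Libraries of the same group differed by a median of 0.02 to 0.07 over the members on the log2 scale, and by at most 0.22 (DDX21 in MDA-MB-231 under IgG).

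**Figure D1:**
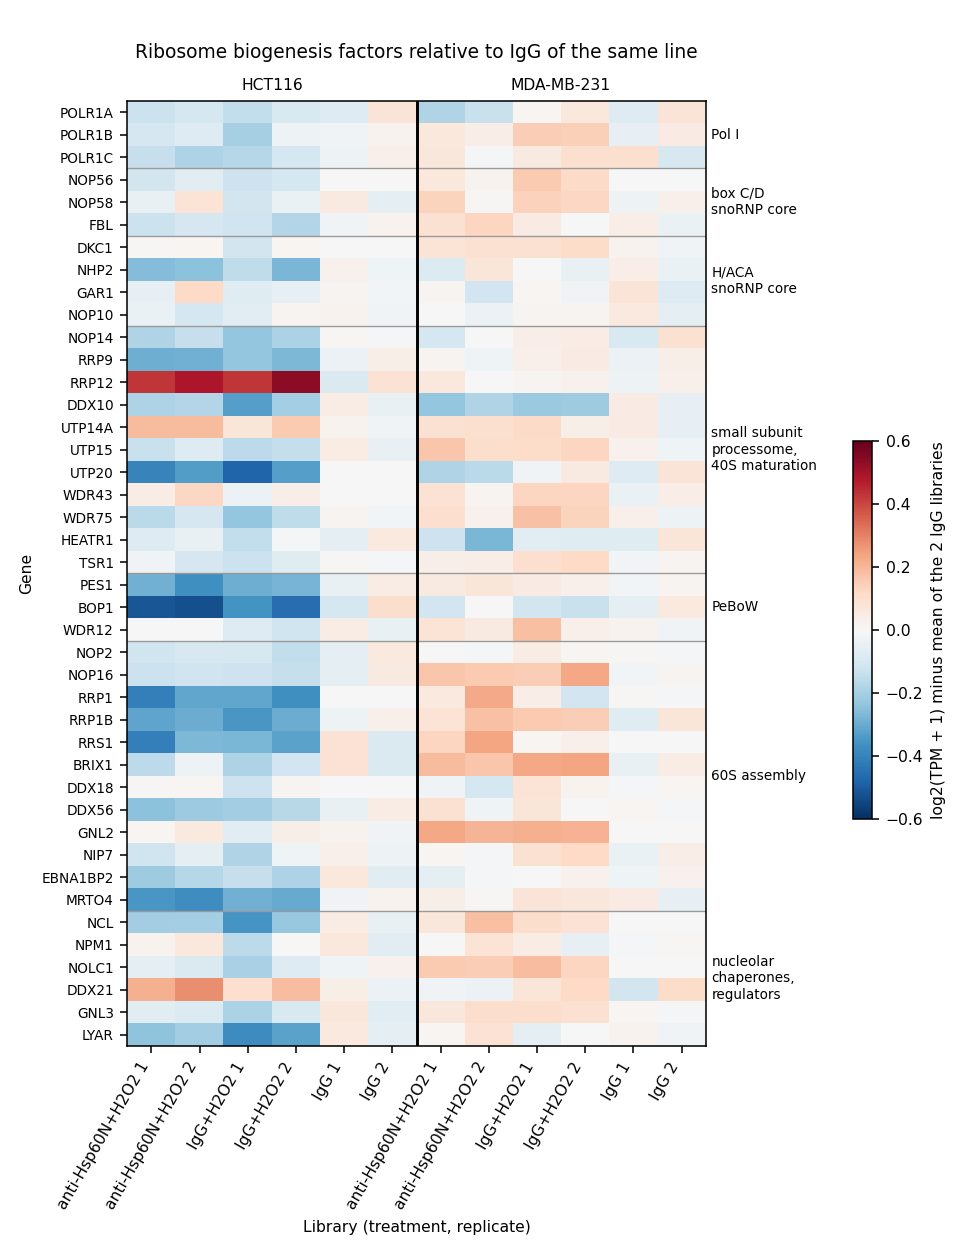
Level of the 42 genes in each of the 12 libraries, with genes in rows by role and libraries in columns by line and treatment. Each value is log2(TPM + 1) minus the gene's mean over the 2 IgG libraries of the same line, so level differences between lines are not shown. For IgG with H2O2, 38 of the 42 genes average below 0 in HCT116, where RRP12 is the highest, and 34 average above 0 in MDA-MB-231.

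The promoters were searched for a feature that the list did not use. RefSeq windows on GRCh38.p14, reaching from 250 bases before to 50 bases after the transcript start, were at hand for 35 of the members, with 42 windows in all, since some genes have more than 1. The 6 letters CACGTG, the E-box that MYC and related factors can bind and which reads the same on both strands, stood in at least 1 window of 16 of the 35 genes (45.7%) and in none of the other 19, against 12.4% of 9996 genes kept in the test and 8.77% of all 27305 genes with a window. GC content did not run higher in the members, with a median of 63.7% in their windows and 64.7% in those of genes kept. Of the 18 matches in members, 14 (77.8%) lay within 50 bases of the start, against 574 of 1503 matches (38.2%) in genes kept. A match is a run of letters and no evidence of binding. A few windows are printed because their genes carry results below, with CACGTG in capitals. UTP20 (chr12:101279855-101280154, plus strand) has the motif 10 bases before its start, and PES1 (chr22:30591861-30592160, minus strand) 13 bases after it. FBL (chr19:39846330-39846629, minus strand) has it 6 bases after the start and GNL2 (chr1:37595888-37596187, minus strand) 3 bases after it, while the window of RRP1 (chr21:43789327-43789626, plus strand) holds no match.
UTP20: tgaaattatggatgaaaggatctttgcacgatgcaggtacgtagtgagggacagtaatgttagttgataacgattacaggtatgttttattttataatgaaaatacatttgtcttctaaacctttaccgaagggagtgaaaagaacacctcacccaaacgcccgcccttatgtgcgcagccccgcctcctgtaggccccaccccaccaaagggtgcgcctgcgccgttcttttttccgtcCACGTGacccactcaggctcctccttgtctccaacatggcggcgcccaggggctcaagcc
PES1: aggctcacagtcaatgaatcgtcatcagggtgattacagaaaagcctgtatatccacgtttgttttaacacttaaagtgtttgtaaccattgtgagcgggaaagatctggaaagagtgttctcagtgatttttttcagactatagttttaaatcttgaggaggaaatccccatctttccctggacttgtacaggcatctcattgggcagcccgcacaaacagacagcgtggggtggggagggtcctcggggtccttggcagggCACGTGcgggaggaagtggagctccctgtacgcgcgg
FBL: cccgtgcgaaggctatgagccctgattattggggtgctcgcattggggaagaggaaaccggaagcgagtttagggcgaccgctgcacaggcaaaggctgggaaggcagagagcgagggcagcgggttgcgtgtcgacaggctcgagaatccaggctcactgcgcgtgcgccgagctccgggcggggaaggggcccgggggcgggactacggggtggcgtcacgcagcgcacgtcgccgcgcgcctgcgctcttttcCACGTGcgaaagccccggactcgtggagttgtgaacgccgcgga
GNL2: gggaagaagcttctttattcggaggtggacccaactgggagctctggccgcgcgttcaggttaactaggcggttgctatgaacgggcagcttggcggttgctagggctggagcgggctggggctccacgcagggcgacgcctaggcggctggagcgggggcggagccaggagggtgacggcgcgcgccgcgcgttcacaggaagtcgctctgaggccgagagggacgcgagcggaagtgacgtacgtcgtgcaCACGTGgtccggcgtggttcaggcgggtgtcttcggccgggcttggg
RRP1: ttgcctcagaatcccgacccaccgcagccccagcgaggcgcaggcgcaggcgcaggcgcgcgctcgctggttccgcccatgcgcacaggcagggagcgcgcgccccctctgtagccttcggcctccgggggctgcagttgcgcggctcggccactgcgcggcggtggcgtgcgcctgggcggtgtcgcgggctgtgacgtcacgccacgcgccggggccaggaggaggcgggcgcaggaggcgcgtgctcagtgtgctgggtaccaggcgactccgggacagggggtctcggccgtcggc

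The first comparison asks what H2O2 did in each line. In HCT116, IgG with H2O2 against IgG, 19 of the 42 genes fell and 1 rose. Falls spread over 60S assembly (6 of 12), the processome (5 of 11), the PeBoW complex (2 of 3), the box C/D core (2 of 3), the nucleolar chaperones (3 of 6) and the H/ACA core (1 of 4), and none of the 3 polymerase subunits passed. The test was limma on log2(TPM + 1), fitted on all 13956 genes, with an adjusted p under 0.05 as the threshold. It called 32.9% of all genes in this comparison, 17.5% lower and 15.4% higher, so the 20 members called (47.6%) lie above that share, the 19 lower (45.2%) above it and the 1 higher below it. The median change over the members was -0.14, against -0.01 over all genes. Negative changes were seen in 38 of 42 members, against 7206 of all 13956 genes. The changes were modest, from -0.41 to 0.48 on the log2 scale. Among markers, the summed TPM of the 6 mesenchymal genes was 59.4 in both libraries with H2O2, against 42.9 and 46.8 under IgG, with CDH2 at 0 in all HCT116 libraries. Most of that gap was AXL, at 47.8 and 47.3 TPM with H2O2, against 31.7 and 35.8 TPM under IgG, while VIM was at 5.39 and 5.81 TPM with H2O2 and 5.23 and 5.06 TPM under IgG. The epithelial sum overlapped between the groups, and its members went both ways. CLDN7 was at 193 and 184 TPM with H2O2, against 111 and 120.4 TPM under IgG. ESRP1 was at 107 and 106 TPM with H2O2, against 84.5 and 78.3 TPM under IgG. KRT8, the most abundant of them, was lower, at 2648 and 2582 TPM with H2O2, against 2749 and 2931 TPM under IgG. The part of these markers in the result was not tested, and immune markers summed to at most 0.37 TPM. After quantile normalization 2 members rose and 11 fell, and without HCT116 replicate 1 of IgG with H2O2 the counts were 1 and 12.

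BOP1 and PES1 belong with WDR12 to PeBoW, the complex that processes the RNA of the large subunit. BOP1 was at 166 and 155 TPM in HCT116 with H2O2, against 198 and 229 TPM under IgG. Both libraries with H2O2 lay below both without it, and the mean fell by 24.8% (log2 -0.41, SE 0.07, limma adjusted p = 0.00184). PES1 was at 239 and 242 TPM with H2O2, against 285 and 302 TPM under IgG (log2 -0.29, SE 0.05, limma adjusted p = 0.00101). Again the groups did not overlap. WDR12 was at 82.5 and 79.9 TPM with H2O2 and 89.9 and 84.2 TPM under IgG, a change of -0.10 that did not pass. In GENCODE an exon of TCN2 overlaps PES1 on the other strand, and with the strand setting unknown here, reads of both cannot be told apart.

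In the small subunit processome, UTP20, a large scaffold protein of the particle, was at 18.1 and 20.2 TPM in HCT116 with H2O2, against 25.5 and 25.7 TPM under IgG. The groups were apart, and the mean fell by 25.3% (log2 -0.40, SE 0.07, limma adjusted p = 0.00216). RRP9, a U3 snoRNA binding protein, was at 135 and 132 TPM with H2O2, against 156 and 163 TPM under IgG (-0.25, limma adjusted p = 0.00215). DDX10 (-0.27), NOP14 (-0.21, overlapped on the other strand by NOP14-AS1) and WDR75 (-0.19) also fell. RRP12, which acts in the export and late maturation of pre-ribosomal subunits, went the other way, with 66.6 and 71.7 TPM under H2O2, against 46.2 and 52.3 TPM under IgG. The mean was 40.4% higher, and the libraries of the groups did not overlap (log2 0.48, SE 0.07, limma adjusted p = 0.00042). HEATR1 (-0.08), WDR43 (0.00), TSR1 (-0.10), UTP15 (-0.15) and UTP14A (0.12) did not pass.

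Among the 60S factors, the paralogs RRP1 and RRP1B, nucleolar proteins related to a yeast factor of large subunit processing, both fell. RRP1 was at 88.6 and 85.1 TPM in HCT116 with H2O2, against 110.4 and 109.9 TPM under IgG (log2 -0.34, SE 0.07, limma adjusted p = 0.00373). RRP1B was at 65.4 and 68.0 TPM with H2O2, against 81.7 and 85.6 TPM under IgG (log2 -0.32, SE 0.06, limma adjusted p = 0.00225). For both paralogs the lower IgG library stood well above the higher H2O2 library. RRS1 and MRTO4 (-0.30 each), DDX56 (-0.19) and EBNA1BP2 (-0.16) fell too, and exons of EMC1 overlap MRTO4, an assembly factor that holds the place of a stalk protein on the early 60S particle, on the other strand. NOP16 (-0.13, limma adjusted p = 0.0527) was just outside the threshold, and BRIX1, NOP2, NIP7, DDX18 and GNL2 lay between -0.15 and -0.02.

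Of the nucleolar chaperones and regulators, LYAR, a zinc finger protein linked to ribosomal RNA transcription and processing, was at 116 and 120.1 TPM in HCT116 with H2O2, against 156 and 144 TPM under IgG. The groups did not overlap, and the mean fell by 21.6% (log2 -0.35, SE 0.05, limma adjusted p = 0.000653). NCL was at 1583 and 1725 TPM with H2O2, against 2082 and 1963 TPM under IgG (log2 -0.29, SE 0.05, limma adjusted p = 0.00195). NOLC1, a snoRNP chaperone, fell by 0.13 on the log2 scale, a call lost under 16 of 21 other settings. The GTPase GNL3 (-0.14), NPM1 (-0.08) and the helicase DDX21 (0.14) did not pass. GENCODE names 45 pseudogenes of NPM1, so the level of NPM1 is uncertain where reads could be split.

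In the snoRNP cores FBL, NOP56 and NHP2 fell, and no polymerase subunit passed. FBL was at 486 and 468 TPM in HCT116 with H2O2, against 521 and 537 TPM under IgG (log2 -0.15, limma adjusted p = 0.0232). NOP56 was at 446 and 452 TPM with H2O2, against 487 and 484 TPM under IgG (-0.11, limma adjusted p = 0.0435), while the third protein of that core, NOP58, was at 207 and 217 TPM with H2O2 and 232 and 216 TPM under IgG, which overlap (-0.08). In the core that guides pseudouridylation, NHP2 was at 314 and 288 TPM with H2O2, against 355 and 342 TPM under IgG (-0.21, limma adjusted p = 0.0184). Exons of RMND5B overlap NHP2 on the other strand. The pseudouridine synthase DKC1 (-0.05), GAR1 (-0.06) and NOP10 (-0.03) did not pass. POLR1A was at 42.1 and 43.8 TPM with H2O2 and 44.2 and 49.5 TPM under IgG (-0.12), with POLR1B (-0.12) and POLR1C (-0.14) near it, and none of these passed. Of the 20 calls in HCT116, 10 held under all 21 other settings: RRP9, RRP12, UTP20, PES1, BOP1, RRP1, RRP1B, MRTO4, NCL and LYAR.

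**Figure D2:**
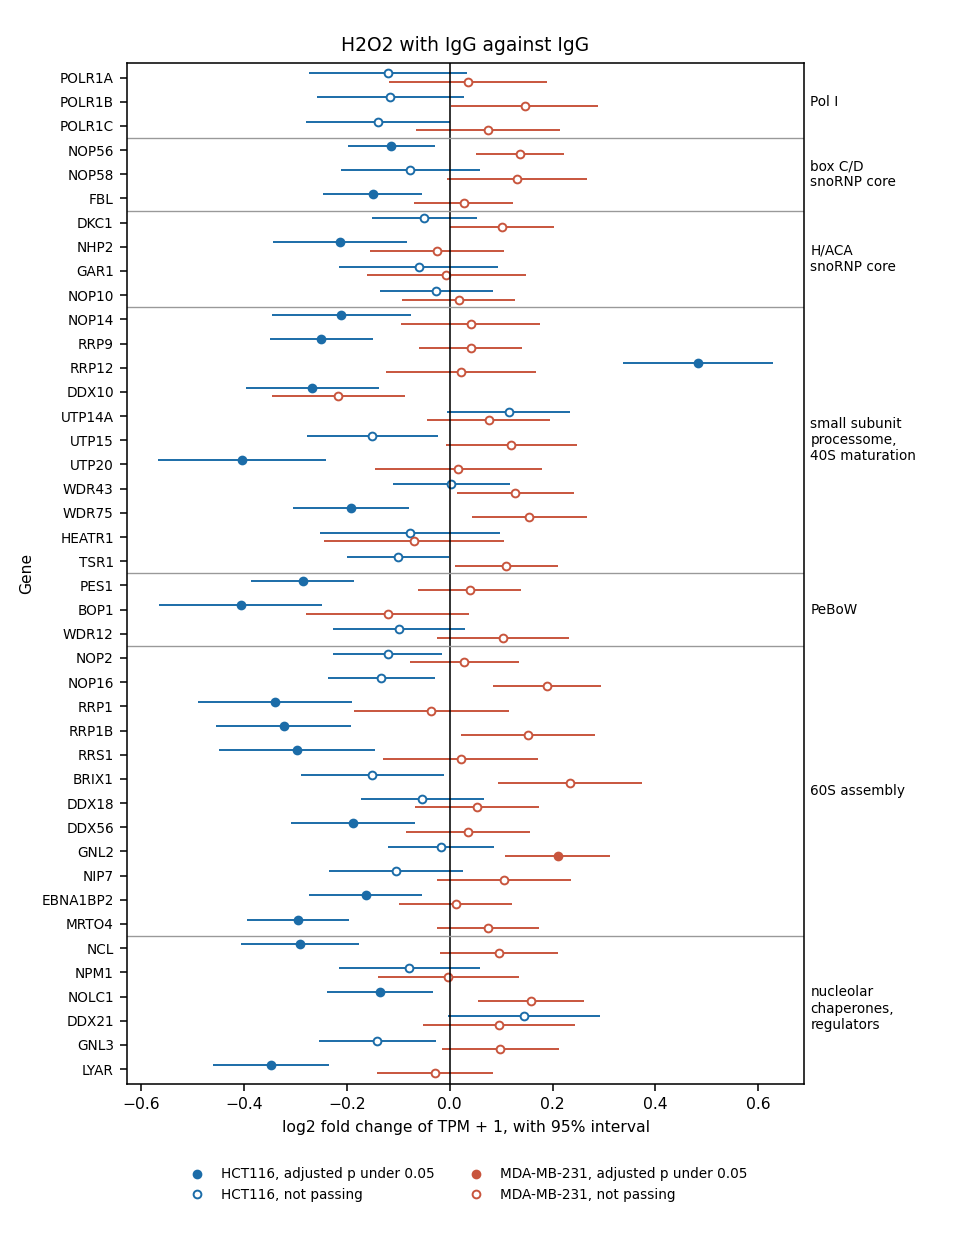
Log2 fold change of TPM + 1 for IgG with H2O2 against IgG, with 95% intervals, for the 42 genes by role in HCT116 (blue) and MDA-MB-231 (red); filled points passed an adjusted p of 0.05. Most HCT116 points lie left of 0, with RRP12 far to the right, and in MDA-MB-231 only GNL2 is filled.

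In MDA-MB-231 under the same treatment 1 of 42 genes rose (2.38%) and 0 fell. Of all genes 2.66% passed, 1.3% higher and 1.36% lower, so the members' share is near the background. The median change was 0.06, against 0.03 over all genes. Positive changes were seen in 34 of 42 members, against 8272 of all 13956 genes. An unadjusted limma p under 0.05 was reached by 12 members, against 2329 of all genes. Marker sums shifted in this line too. The mesenchymal sum was 2674 and 2683 TPM with H2O2, against 2984 and 3061 TPM under IgG. The epithelial sum was 1785 and 1778 TPM with H2O2, against 1989 and 2006 TPM under IgG, and the part of these shifts was not tested. GNL2, a nucleolar GTPase of 60S export, was at 105 and 104 TPM with H2O2, against 90.1 and 90.03 TPM under IgG. The libraries of the groups did not overlap, and replicates lay close together (log2 0.21, SE 0.05, limma adjusted p = 0.0402). An exon of DNALI1 overlaps GNL2 on the other strand, so that reads of both cannot be told apart. That call ended under 12 of 21 other settings, among them every fit without one of the 6 MDA-MB-231 libraries or one of the 2 HCT116 antibody libraries, with an adjusted p of up to 0.216. NOP16, which acts in 60S assembly, was at 154 and 163 TPM with H2O2, against 138 and 140.4 TPM under IgG (0.19, limma adjusted p = 0.0663). DDX10, a processome helicase, was at 55.1 and 55.6 TPM with H2O2, against 66.7 and 62.3 TPM under IgG (-0.22, limma adjusted p = 0.086). Neither passed. BRIX1 had the largest change on the list in this line. It was at 196 TPM in both libraries with H2O2, against 161 and 172 TPM under IgG (0.23), and did not pass. Without HCT116 IgG replicate 1, or without replicate 2, 3 members passed. Over all genes the split of 181 higher and 190 lower calls became 154 and 279 with median-of-ratios scaling.

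The PeBoW genes had changes of -0.12 to 0.10 on the log2 scale in MDA-MB-231 with H2O2. BOP1 was at 96.0 and 94.6 TPM with H2O2 and 99.4 and 108 TPM under IgG, PES1 at 103 and 102 TPM with H2O2 and 98.6 and 101 TPM under IgG, and WDR12 at 45.1 and 40.5 TPM with H2O2 and 40.3 and 39.1 TPM under IgG. None of the 3 passed. UTP20 (18.3 and 19.4 TPM with H2O2, 17.6 and 19.7 TPM under IgG) and RRP12 (39.6 and 39.9 TPM with H2O2, 38.2 and 40.02 TPM under IgG) overlapped between the groups. The difference between the lines was tested itself, as the H2O2 change in HCT116 minus that in MDA-MB-231. It passed for 18 of the 42 genes (42.9%), against 17.4% of all genes. The change was lower in HCT116 for 17 of them (9.72% of all genes) and higher for RRP12 (7.65%). The members' median difference was -0.22, against -0.04 over all genes.

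RRP1B showed the widest such gap on the list, with a change in HCT116 that was 0.48 lower on the log2 scale (SE 0.08, limma adjusted p = 0.00455). In MDA-MB-231 it was at 39.1 and 38.9 TPM with H2O2, against 33.2 and 36.8 TPM under IgG, so its values there were higher with H2O2 while those in HCT116 were lower. For UTP20 the difference was -0.42 (limma adjusted p = 0.0208) and for NCL, at 797 and 788 TPM with H2O2 and 742 TPM in both IgG libraries of MDA-MB-231, -0.39 (limma adjusted p = 0.00637). RRP12 differed by 0.46 the other way (SE 0.09, limma adjusted p = 0.00858). BOP1, whose change in HCT116 was the lowest on the list, differed by -0.29 (SE 0.10), which did not pass (limma adjusted p = 0.0783). Of the 18 calls, 6 (RRP12, PES1, NOP16, RRP1B, MRTO4 and NCL) held under all 20 settings that could be run for a comparison across lines. The count was 10 after quantile normalization, without either MDA-MB-231 library of IgG with H2O2, and without HCT116 replicate 1 of IgG with H2O2.

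**Figure D3:**
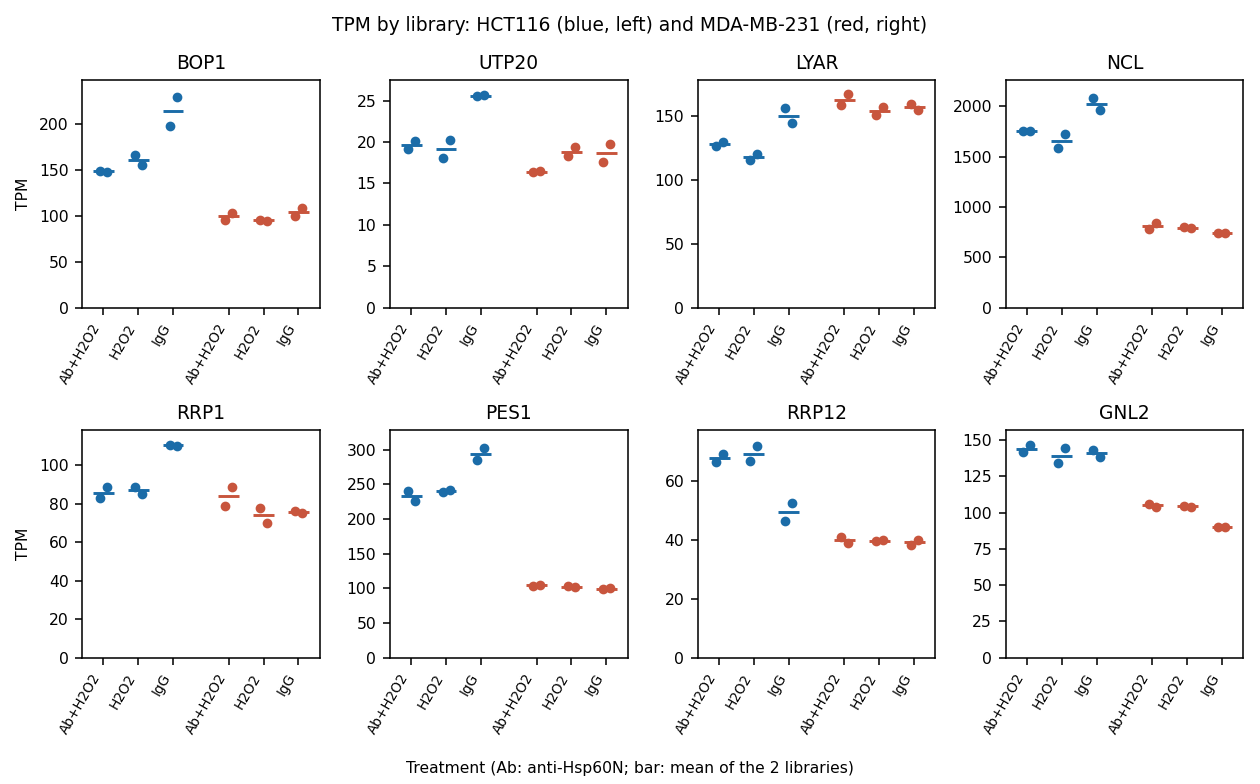
TPM in each library (points; bars are means of 2) for 8 members by treatment, in HCT116 (blue, left) and MDA-MB-231 (red, right), on axes that start at 0. BOP1, UTP20, LYAR, NCL, RRP1 and PES1 are lower and RRP12 higher in both H2O2 groups of HCT116 than under IgG, while GNL2 is higher in both H2O2 groups of MDA-MB-231.

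The second comparison asks whether the antibody altered expression under H2O2. With anti-Hsp60N and H2O2 against IgG and H2O2, 0 of the 42 genes passed in HCT116 and 0 in MDA-MB-231 by limma, against 0.0215% of all genes in HCT116 (0.00717% higher) and 0.0143% in MDA-MB-231. At an unadjusted limma p under 0.05 there was 1 member in HCT116, against 720 of all 13956 genes. In MDA-MB-231 there were 5 members, against 1829 of all genes. The median change was 0.04 in HCT116 (0.01 over all genes) and -0.03 in MDA-MB-231 (-0.02 over all genes). The 95% interval of a member reached a median of 0.12 to each side of its change and at most 0.18, so that smaller changes could not be told from 0. These intervals are not adjusted for the number of genes tested, so larger changes could also miss the threshold.

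LYAR had the smallest p on the list in HCT116, at 127 and 129.8 TPM with the antibody and H2O2, against 116 and 120.1 TPM with IgG and H2O2 (log2 0.12, 95% interval 0.01 to 0.24, limma adjusted p = 0.92). NPM1 was at 3548 and 3648 TPM with the antibody, against 3127 and 3496 TPM with IgG (0.12), and NCL at 1752 and 1758 TPM with the antibody, against 1583 and 1725 TPM with IgG (0.09, limma adjusted p = 0.92). In these 3 genes, which had the smallest p on the list, the antibody libraries lay above those with IgG, and none passed. In MDA-MB-231, POLR1A was at 24.0 and 24.8 TPM with the antibody, against 27.5 and 28.5 TPM with IgG (-0.19, 95% interval -0.35 to -0.04, limma adjusted p = 0.309). RRP1 was at 78.7 and 88.8 TPM with the antibody, against 77.8 and 69.9 TPM with IgG (0.18, limma adjusted p = 0.319). UTP20 was at 16.3 and 16.5 TPM with the antibody, against 18.3 and 19.4 TPM with IgG (-0.19, limma adjusted p = 0.321). These 3 genes had the smallest p on the list in this line, and none passed. The difference of the antibody change between the lines passed for 0 members (limma, 0.0287% of all genes). At an unadjusted limma p under 0.05 there were 3 members, against 1740 of all 13956 genes.

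**Figure D4:**
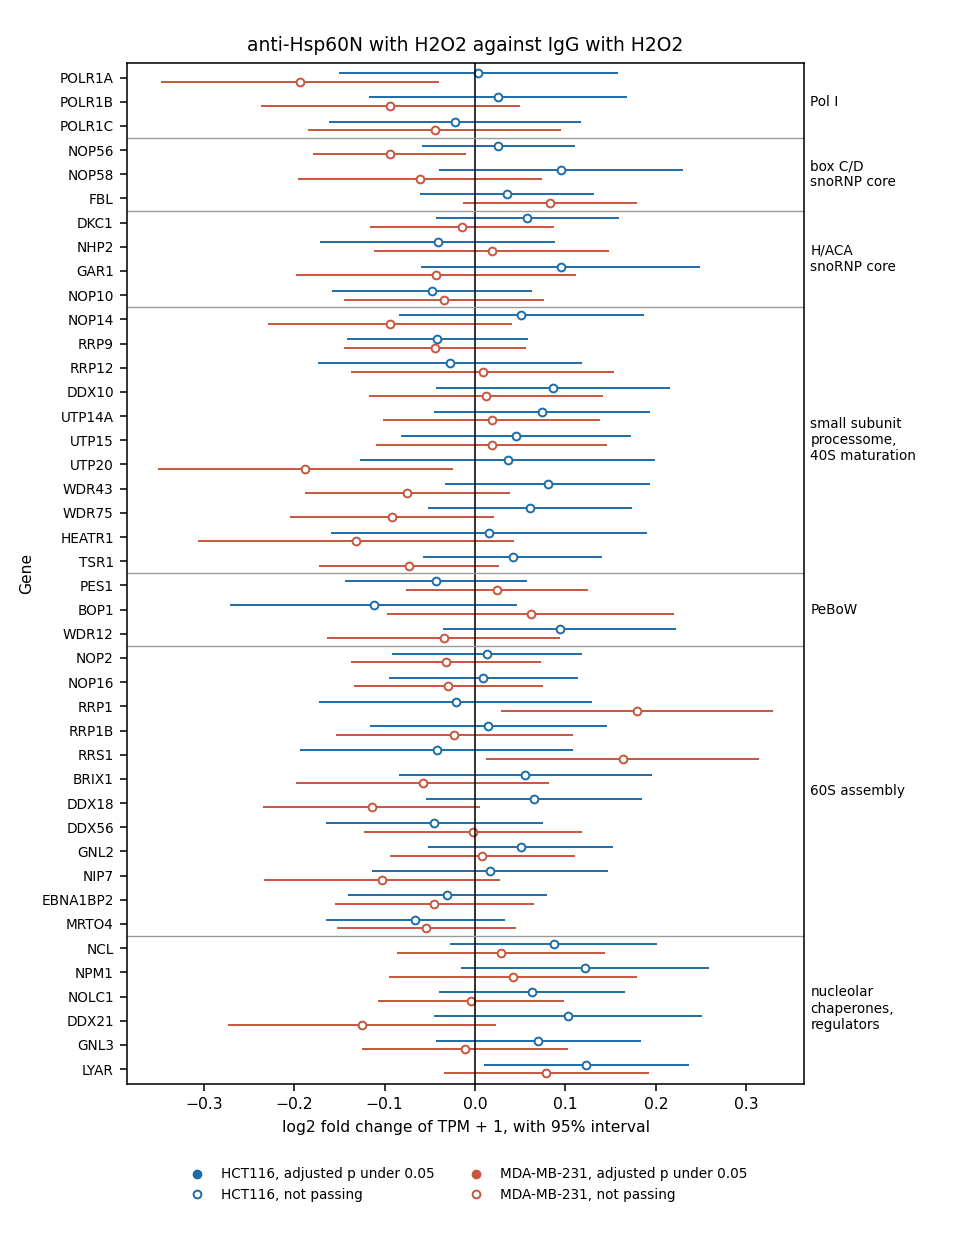
Log2 fold change of TPM + 1 for the antibody (anti-Hsp60N) over IgG, both with H2O2, with 95% intervals, for the 42 genes in HCT116 (blue) and MDA-MB-231 (red). All points are open, since none passed, and they lie between -0.19 and 0.18.

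The group with the antibody and H2O2 was also set against IgG, the same IgG libraries as above, so the values of both comparisons stand side by side and are not independent. In HCT116 17 of 42 genes passed (40.5%), 14 lower and 3 higher, against 34.3% of all genes, 17.5% lower and 16.8% higher. The members' median was -0.11, against 0.00. BOP1 was at 149 and 148 TPM with the antibody and H2O2, against 198 and 229 TPM under IgG (log2 -0.52, limma adjusted p = 0.000412). UTP20 was at 19.1 and 20.1 TPM with the antibody, against 25.5 and 25.7 TPM under IgG (-0.37, limma adjusted p = 0.00349), and RRP1 at 82.7 and 88.4 TPM with the antibody, against 110.4 and 109.9 TPM under IgG (-0.36, limma adjusted p = 0.0025). All 3 were lower in both antibody libraries. Besides RRP12 (66.5 and 69.1 TPM with the antibody, against 46.2 and 52.3 TPM under IgG; 0.46, limma adjusted p = 0.000536), the helicase DDX21, which couples polymerase I and II transcription, rose to 269 and 282 TPM with the antibody, against 238 and 226 TPM under IgG (0.25, limma adjusted p = 0.0158). UTP14A, of the processome, rose to 63.5 TPM in both antibody libraries, against 56.4 and 54.7 TPM under IgG (0.19, limma adjusted p = 0.0203). In MDA-MB-231 GNL2 alone passed (2.38% of members, against 3.4% of all genes, 1.5% higher and 1.9% lower), at 106 and 104 TPM with the antibody, against 90.1 and 90.03 TPM under IgG (0.22, limma adjusted p = 0.0293). That call ended without any 1 of the 6 MDA-MB-231 libraries or of the 2 HCT116 antibody libraries.

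The third comparison set the lines against each other under IgG. HCT116 had more of most of these transcripts: 36 of 42 genes were higher (85.7%) and 2 lower, against 45.5% higher and 37.3% lower over all genes. In all, 38 members passed (90.5%), where 82.8% of all genes did. The median difference was 0.62 on the log2 scale, against 0.11 over all genes. Median-of-ratios scaling moved the median of all genes to -0.01, and the members then had a median of 0.49, with 32 higher and 4 lower.

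HEATR1, a processome protein needed for polymerase I transcription, differed most, at 42.3 and 46.0 TPM in HCT116, against 11.9 and 13.3 TPM in MDA-MB-231 (log2 1.73, 3.50-fold in mean TPM, limma adjusted p = 2.87e-09). HEATR1 is overlapped by an exon of LGALS8 on the other strand. In all, 13 members have such an overlap, the others being POLR1C, NHP2, NOP14, UTP15, TSR1, PES1, NOP16, BRIX1, GNL2, NIP7, MRTO4 and GNL3, and their values are uncertain to that extent. PES1 was at 285 and 302 TPM in HCT116, against 98.6 and 101 TPM in MDA-MB-231 (1.55, limma adjusted p = 7.06e-11). NCL was at 2082 and 1963 TPM in HCT116, against 742 TPM in both MDA-MB-231 libraries (1.44, limma adjusted p = 3.72e-10). These are wide gaps beside the spread within a line. The whole PeBoW complex was higher in HCT116, with BOP1 at 1.03 and WDR12 at 1.11, and so were POLR1A (0.76), POLR1B (1.02) and POLR1C (0.23). The box C/D core was uneven, with NOP58 at 1.34, NOP56 at 0.92 and FBL at 0.16. In the H/ACA core DKC1 (0.49) and NHP2 (0.33) were higher, whereas GAR1, at 106 and 103 TPM in HCT116 and 113 and 102 TPM in MDA-MB-231, and NOP10, at 449 and 438 TPM in HCT116 and 456 and 419 TPM in MDA-MB-231, overlapped. RRP1B (1.24) and its paralog RRP1 (0.54) were both higher.

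EBNA1BP2, a 60S scaffold protein, was lower in HCT116, at 282 and 258 TPM, against 303 and 314 TPM in MDA-MB-231 (-0.19, limma adjusted p = 0.00376). DDX10 was at 59.2 and 55.5 TPM in HCT116, against 66.7 and 62.3 TPM in MDA-MB-231 (-0.17, limma adjusted p = 0.0201). The libraries of the lines did not overlap for either gene. NOP16 (-0.08) and LYAR (-0.07) did not pass. Of the 38 calls, 32 held under all 20 other settings run.

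**Figure D5:**
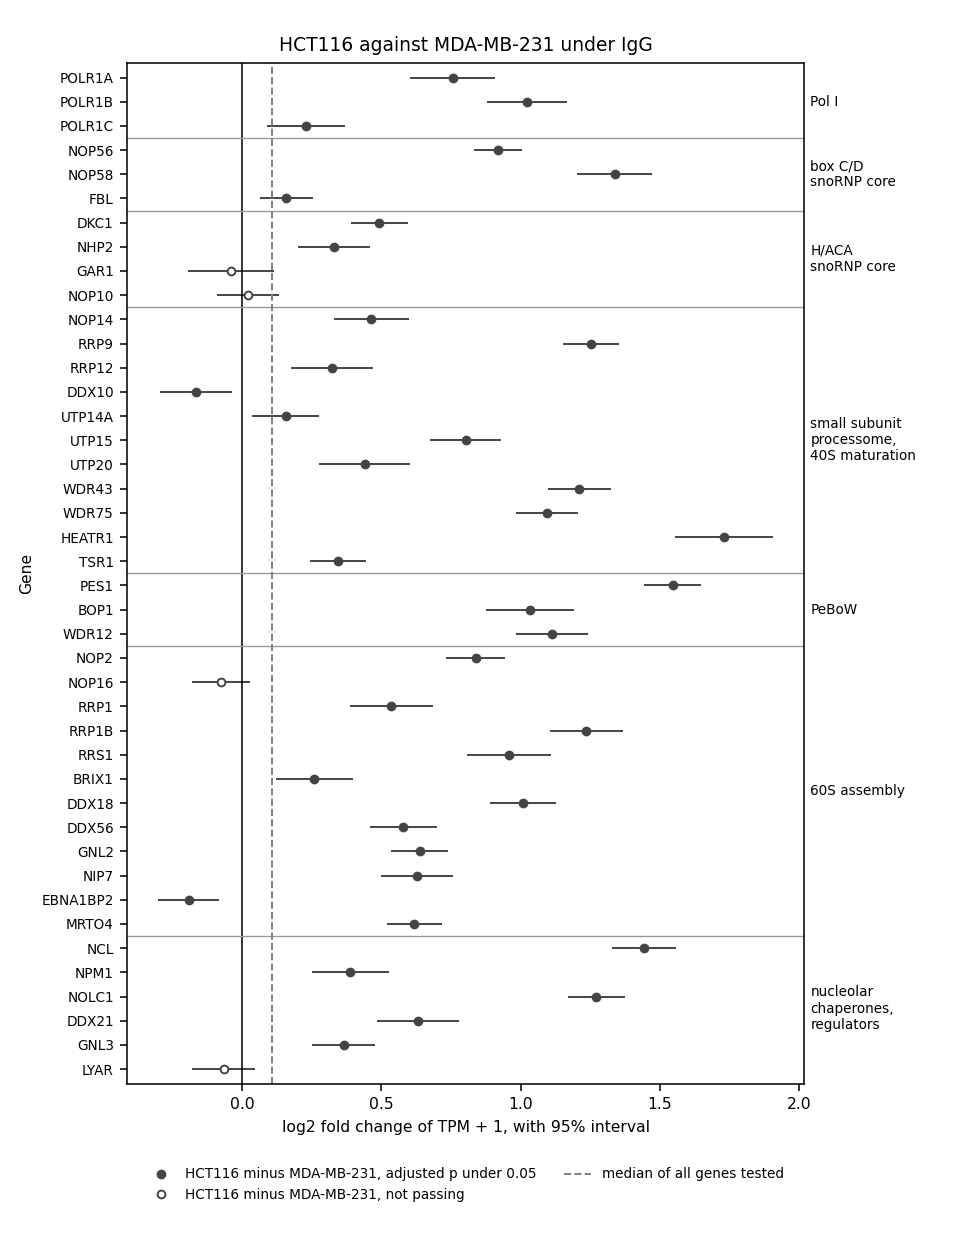
Log2 fold difference of TPM + 1, HCT116 against MDA-MB-231 under IgG, with 95% intervals, for the 42 genes by role; filled points passed an adjusted p of 0.05. Of the 42 points, 36 are filled to the right of 0, led by HEATR1 at 1.73, and 2 to the left.

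Genes of the pathway outside the list gave the wider frame, from a list of 131 that were all kept. In HCT116 with H2O2 against IgG, 49 of these fell (37.4%, against 17.5% of all genes) and 6 rose (4.58%, against 15.4%), with a median of -0.13, against -0.01 over all genes. Of 46 small subunit genes, 24 fell (52.2%) and none rose. Of 46 large subunit genes, 10 fell (21.7%) and 3 rose, with 28.3% called in all, which is near the 32.9% of all genes. Of 14 polymerase I genes 5 fell and 2 rose, of 10 snoRNP assembly genes 5 fell and 1 rose, and of 15 exosome genes 5 fell. TSR3, which modifies the RNA of the small subunit, was at 55.9 and 50.2 TPM with H2O2, against 80.3 and 81.8 TPM under IgG (-0.60, limma adjusted p = 0.000392). DHX37, a processome helicase, was at 42.0 and 39.7 TPM with H2O2, against 55.3 and 63.6 TPM under IgG (-0.53, limma adjusted p = 0.000265), and NOC4L at 41.2 and 36.5 TPM with H2O2, against 54.8 and 57.2 TPM under IgG (-0.52, limma adjusted p = 0.00498). Each was lower in both H2O2 libraries.

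RSL24D1, a placeholder of the early 60S particle, rose to 268 and 285 TPM in HCT116 with H2O2, against 190.5 and 172 TPM under IgG (0.61, limma adjusted p = 0.000147). TAF1D, a subunit of the polymerase I selectivity factor, rose to 103 and 111 TPM with H2O2, against 76.1 and 74.4 TPM under IgG (0.50, limma adjusted p = 0.000103), and ZNHIT6, of box C/D assembly, to 18.4 and 18.6 TPM with H2O2, against 14.8 and 15.1 TPM under IgG (0.29, limma adjusted p = 0.00349). The libraries did not overlap in any of the 3. With the antibody and H2O2 against IgG, 49 of the 131 fell (37.4%, against 17.5% of all genes) and 11 rose (8.40%, against 16.8%) in HCT116, led by TSR3 (-0.64), DHX37 (-0.61) and TBL3 (-0.56) and by RSL24D1 (0.71), TAF1D (0.60) and ZNHIT6 (0.35). In MDA-MB-231 with H2O2 against IgG, 27 of the 131 had an unadjusted limma p under 0.05, against 2329 of all 13956 genes. After adjustment 2 of the 131 rose (1.53%, near the 1.3% of all genes) and 0 fell. These were NAF1, an H/ACA assembly factor, at 17.5 and 16.5 TPM with H2O2, against 13.1 and 14.2 TPM under IgG (0.30, limma adjusted p = 0.0425), and CEBPZ, at 73.3 and 69.6 TPM with H2O2, against 58.6 and 60.7 TPM under IgG (0.26, limma adjusted p = 0.0387). The difference of the H2O2 change between the lines passed for 46 of the 131 (35.1%, against 17.4% of all genes), 44 lower and 2 higher in HCT116. Under IgG 91 were higher (69.5%, against 45.5% of all genes) and 18 lower (13.7%, against 37.3%) in HCT116 than in MDA-MB-231, while the share called, 83.2%, was near the 82.8% of all genes.

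The regulators did not share one direction. MYC was at 244 and 252 TPM in HCT116 with H2O2, against 195 and 193 TPM under IgG (log2 0.35, SE 0.04, limma adjusted p = 0.000233). With the antibody and H2O2 it was at 251 and 261 TPM. Of its partner and antagonists, chosen for naming after their values were seen, MXD1 rose to 12.2 and 13.7 TPM with H2O2, against 2.98 and 2.36 TPM under IgG (1.93, limma adjusted p = 5.67e-07). MNT rose to 13.2 and 12.3 TPM with H2O2, against 6.63 and 7.99 TPM under IgG (0.73, limma adjusted p = 0.000905). The antagonist MXI1 (0.25, limma adjusted p = 0.0537) and the partner MAX (-0.12) did not pass. In MDA-MB-231 MYC was at 121 and 123 TPM with H2O2 and 114 and 121 TPM under IgG (0.05, limma adjusted p = 0.62). UBTF, which opens ribosomal DNA for polymerase I, fell in HCT116 to 79.3 and 79.8 TPM with H2O2, against 101 and 108 TPM under IgG (-0.39, limma adjusted p = 0.000531), and did not pass in MDA-MB-231, at 44.2 and 45.3 TPM with H2O2 and 39.0 and 42.1 TPM under IgG (0.14). RRN3, the initiation factor of the polymerase, did not pass in either line (0.09 in HCT116 and 0.13 in MDA-MB-231), while its level under IgG was 2.06 higher on the log2 scale in HCT116 than in MDA-MB-231. The 85 ribosomal protein genes held 23.5% and 23.2% of TPM in HCT116 with H2O2, against 21.7% and 21.0% under IgG; since TPM sum to a fixed total, such shares bear on every other gene, and their part in the members' falls was not tested.

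Promoters with CACGTG stood in both kinds of member. Of the members lower with H2O2 in HCT116, 8 of 15 with a window held it (53.3%), UTP20, PES1 and FBL printed above among them and RRP1 not, and of the other members 8 of 20 (40%). GNL2, which holds the motif 3 bases from its start, did not pass in HCT116. Several members host snoRNA genes in their introns. Of 20 such snoRNAs with a row in the table, 19 were listed at 0 in every library. SNORA51, in an intron of NOP56, was at 24.2 and 26.3 TPM in HCT116 under IgG and at 21.5 and 28.0 TPM in MDA-MB-231 under IgG, and was listed at 0 in all 8 libraries with H2O2, where NOP56 itself was at 260 to 464 TPM. An exact 0 can be an estimate that failed, so no fold is given.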

How the data were processed

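The authors deposited TPM per gene for 12 libraries in 1 table, given to 2 decimals, with 0 columns left unmatched to a sample. Named without role or order in the submitters' processing notes are the build hg19 and the tools RSEM, STAR and bcl2fastq 2.20; their annotation, strand setting and other versions were not given in sources used here. TPM keep no read depth, so no counting interval could be given.

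From the deposited TPM, log2(TPM + 1) was computed, which understates changes of low genes. Genes with at least 1 TPM in at least 2 libraries were kept (13956 of 23686). A two-sided limma test (3.58.1, in R 4.3.3) used a variance trend and 6 group means, leaving 6 residual degrees of freedom, with Benjamini-Hochberg adjustment over all genes kept and a threshold of 0.05; it was tested on simulated data. Intervals are 95%. The 9 comparisons were read off this fit for the members. The members, the wider list and the tests were chosen with earlier results of these data known. Named genes are those of largest change among the called per comparison, up to 5 per direction for H2O2 against IgG and 3 elsewhere, those of smallest p where fewer than 3 passed, and the members of 4 complexes and 1 paralog pair; RRP9, NCL and MRTO4 under H2O2, BRIX1 and others given by a change alone were added after their values were seen. Alternatives were pseudocounts of 0.1 and 5, no filter, a mean of at least 5 TPM, median-of-ratios scaling, quantile normalization, each line alone, a replicate block, no variance trend, and leaving out each library. Exon overlaps and hosted snoRNAs (within a member's span on the same strand) come from GENCODE coordinates on GRCh38. Pseudogenes come from its gene names, and all were matched to the deposited rows by name. Figures used matplotlib 3.10.9 in Python 3.11.15.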

Additional observations from a re-analysis of the deposited data

Results flagged for a closer look

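For 18 members the H2O2 change (IgG with H2O2 against IgG) differed between HCT116 and MDA-MB-231 by a test of the difference itself (limma adjusted p under 0.05). On the log2 scale, as the change in HCT116 minus that in MDA-MB-231, the difference was -0.48 for RRP1B, -0.42 for UTP20, -0.39 for NCL, -0.38 for BRIX1, -0.37 for MRTO4 and -0.35 for WDR75. It was -0.32 for PES1, NOP16, LYAR and RRS1, -0.29 for NOLC1 and RRP9, -0.27 for UTP15, -0.25 for NOP56, -0.24 for GNL3, -0.23 for GNL2 and -0.21 for TSR1. RRP12 alone had a positive difference, of 0.46. Of these genes, BRIX1, NOP16, UTP15, GNL3, GNL2 and TSR1 did not pass in HCT116 by themselves. The difference passed in 17.4% of all genes.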

How the results depend on the processing

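Depth is unknown, and 2 libraries per group limit what could be seen. Groups of 2 libraries can lie apart without a change. Where the text says that groups did not overlap, the share of all genes that do so was not counted. The number of members called stayed within 1.5 times its value, and no called change reversed, with these exceptions. After quantile normalization, 13 members passed for H2O2 in HCT116 (2 higher and 11 lower) and 10 for the difference of the H2O2 change between lines. For H2O2 in MDA-MB-231 the count of 1 became 0 with median-of-ratios scaling, with the line fitted alone and with no variance trend, and for the antibody with H2O2 against IgG in that line it became 0 in those last 2 settings. Leaving out each library in turn gave 13 to 20 for H2O2 in HCT116, 0 to 3 in MDA-MB-231, 12 to 19 and 0 to 1 for the antibody with H2O2 against IgG in HCT116 and MDA-MB-231, 10 to 18 for the difference between lines and 35 to 38 for the lines under IgG; the lone library left is then assumed to vary like the other groups. The cause was not tested. Whether replicate numbers mark pairs is not known, and the main test used no pairing. Deviations of same-numbered libraries correlated at -0.13 to 0.06 in HCT116 and 0.01 to 0.16 in MDA-MB-231. With 2 libraries per group, such values cannot exclude a pairing. With the replicate block, 18 members passed for H2O2 in HCT116 (1 higher and 17 lower), 13 for the difference between lines (1 and 12), and 0 for H2O2 and 0 for the antibody with H2O2 against IgG in MDA-MB-231. Of the called members, 10 of 20 held in every setting for H2O2 in HCT116 and 6 of 18 for the difference.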
